A study of Mus musculus with 6 samples.

Results

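The mRNAs of the mitochondrial ribosome were taken as every gene of the deposited table whose name begins with Mrpl or Mrps and a number, without the 4 rows named as pseudogenes (-ps). The rule gave 77 of the 35275 genes, 48 named for the large subunit (Mrpl) and 29 for the small subunit (Mrps). They were measured by RNA sequencing of whole epididymal fat, the visceral depot beside the testis, from male C57BL/6 mice aged 4.5 months that had eaten a diet with 60% fat for 10 weeks, beginning at 2 months. The 3 control samples carried the genotype Tfrcfl/fl, with loxP sites in both copies of the transferrin receptor gene Tfrc. The 3 knockout samples carried TfrcAKO; the labels name neither the promoter that drives the recombinase nor the animal behind each sample, and a p-value here reflects only how much the 6 samples vary. Diet, sex, strain and age were the same in both groups.

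Mitochondria hold their own ribosomes, which translate the few respiratory chain subunits encoded in mitochondrial DNA. The ribosomal RNAs of these particles are mitochondrial transcripts, while every ribosomal protein is encoded in the nucleus, made in the cytosol and imported. The large subunit forms peptide bonds and carries the exit tunnel, and the small subunit holds the mRNA and reads its codons. Part of the proteins are homologues of bacterial ribosomal proteins and the rest were added in the mitochondrial lineage. White fat has few mitochondria per cell volume, and their number and activity are known to differ with obesity and with the supply of iron, which the respiratory chain needs in iron-sulfur clusters and haem.

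Depth was 25252839 to 30650624 gene-assigned reads per sample, and the tested ribosomal protein genes had between 198 and 1870 reads each. Values per group are given in the order of replicates 1, 2 and 3. Controls had 11.1, 13.2 and 11.9 FPKM of Tfrc, and knockouts 7.10, 8.27 and 9.50 FPKM. All 3 knockout values were below all 3 control values, and the fall of 0.52 on the log2 scale had a limma adjusted p of 0.0147, or 0.0595 and 0.0525 without control replicate 2 or 3. Knockout replicate 3 stood apart from the other 2 knockout libraries, with 107 and 87.4 for chi-square over degrees of freedom, against 16.7 between those 2, and control replicate 2 from the other controls, with 72.3 and 78.6 against 19.6.

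Mitochondrial ribosomal protein mRNAs were modestly higher in knockout fat, in both subunits. FPKM are fragments per kilobase of gene length, scaled to the assigned reads of each library, so levels can be compared and summed across genes. The 47 large-subunit mRNAs that passed the filter on low values (0.5 FPKM in 3 samples) summed to 1040, 1020 and 1010 FPKM in the controls and to 1170, 1180 and 1260 FPKM in the knockouts. The 29 small-subunit mRNAs summed to 511, 492 and 469 FPKM in the controls and to 576, 590 and 614 FPKM in the knockouts. In both subunits every knockout sum lay above every control sum, with a ratio of the group means of 1.17 in the large and 1.21 in the small subunit. Both sums were highest in knockout replicate 3. The ratio of the large to the small sum had a mean of 2.09 among controls (SD 0.0557, n = 3) and of 2.02 among knockouts (SD 0.0252, n = 3). Its ranges, 2.04 to 2.15 and 2.00 to 2.05, overlapped. The small-subunit sum holds Mrps6, the member of largest change, with group means of 39.2 and 67.9 FPKM. Sums and ratios without Mrps6 were not computed. With members sorted by the place of their protein in the ribosome, the ratio of the group means was 1.18 in the large and 1.22 in the small subunit.

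**Figure D1:**
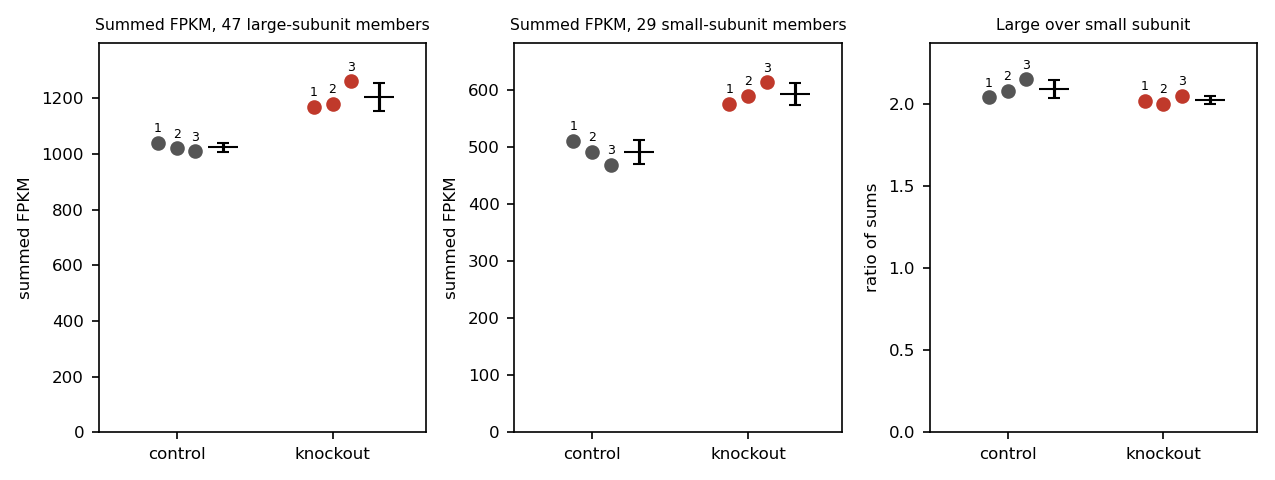
Summed FPKM of the 47 large-subunit and 29 small-subunit mRNAs and the ratio of the sums, 1 point per sample labelled with its replicate number; the black bar gives the mean and SD of 3 samples. Knockout sums lie between 1170 and 1260 FPKM (large) and 576 and 614 FPKM (small), above all control sums, while the ratios of the groups overlap.

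Gene by gene, 34 of 76 tested members rose and 1 fell in the knockout (limma on log2(FPKM + 0.5), adjusted p under 0.05 over all tested genes). Of all 14383 tested genes 43.5% were called, 21.9% higher and 21.6% lower. Members had a median log2 fold change of 0.22, a 1.17-fold difference, against −0.03 for all tested genes. In 48 members all 3 knockout values were above all 3 control values, against 29.1% of all tested genes, and in 2 they were all below, against 31.0%. The number of calls depended on the control libraries. Without control replicate 3 it was 11 of 76 (14.5%, against 13.5% of all genes called higher in that fit), without control replicate 2 it was 13 (17.1% against 14.5%) and without control replicate 1 it was 18 (23.7% against 17.7%). Without knockout replicate 2 it was 22 (28.9% against 18.6%). The members' median stayed between 0.19 and 0.24 in the 6 fits that left out 1 library.

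The shares called higher were 44.7% in the large and 44.8% in the small subunit. In the large subunit 21 of 47 tested members rose and 1 fell, with a median log2 fold change of 0.21 and quartiles of 0.07 and 0.33. In the small subunit 13 of 29 rose, with a median of 0.23 and quartiles of 0.10 and 0.33. All 29 small-subunit values were at or above 0, the lowest being Mrps23, whose value of 0.00 changed sign between fits. With no value below 0, no small-subunit gene could be called lower in this fit. By limma-voom on recovered reads none was lower at an unadjusted p under 0.05. Mrps30 and Mrps18a are named for the small subunit, but their proteins sit in the large one, and Mrps36 is now known as a part of the oxoglutarate dehydrogenase complex. Sorted by place in the ribosome, 23 of 49 large-subunit and 11 of 26 small-subunit genes rose, with medians of 0.23 and 0.22.

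**Figure D2:**
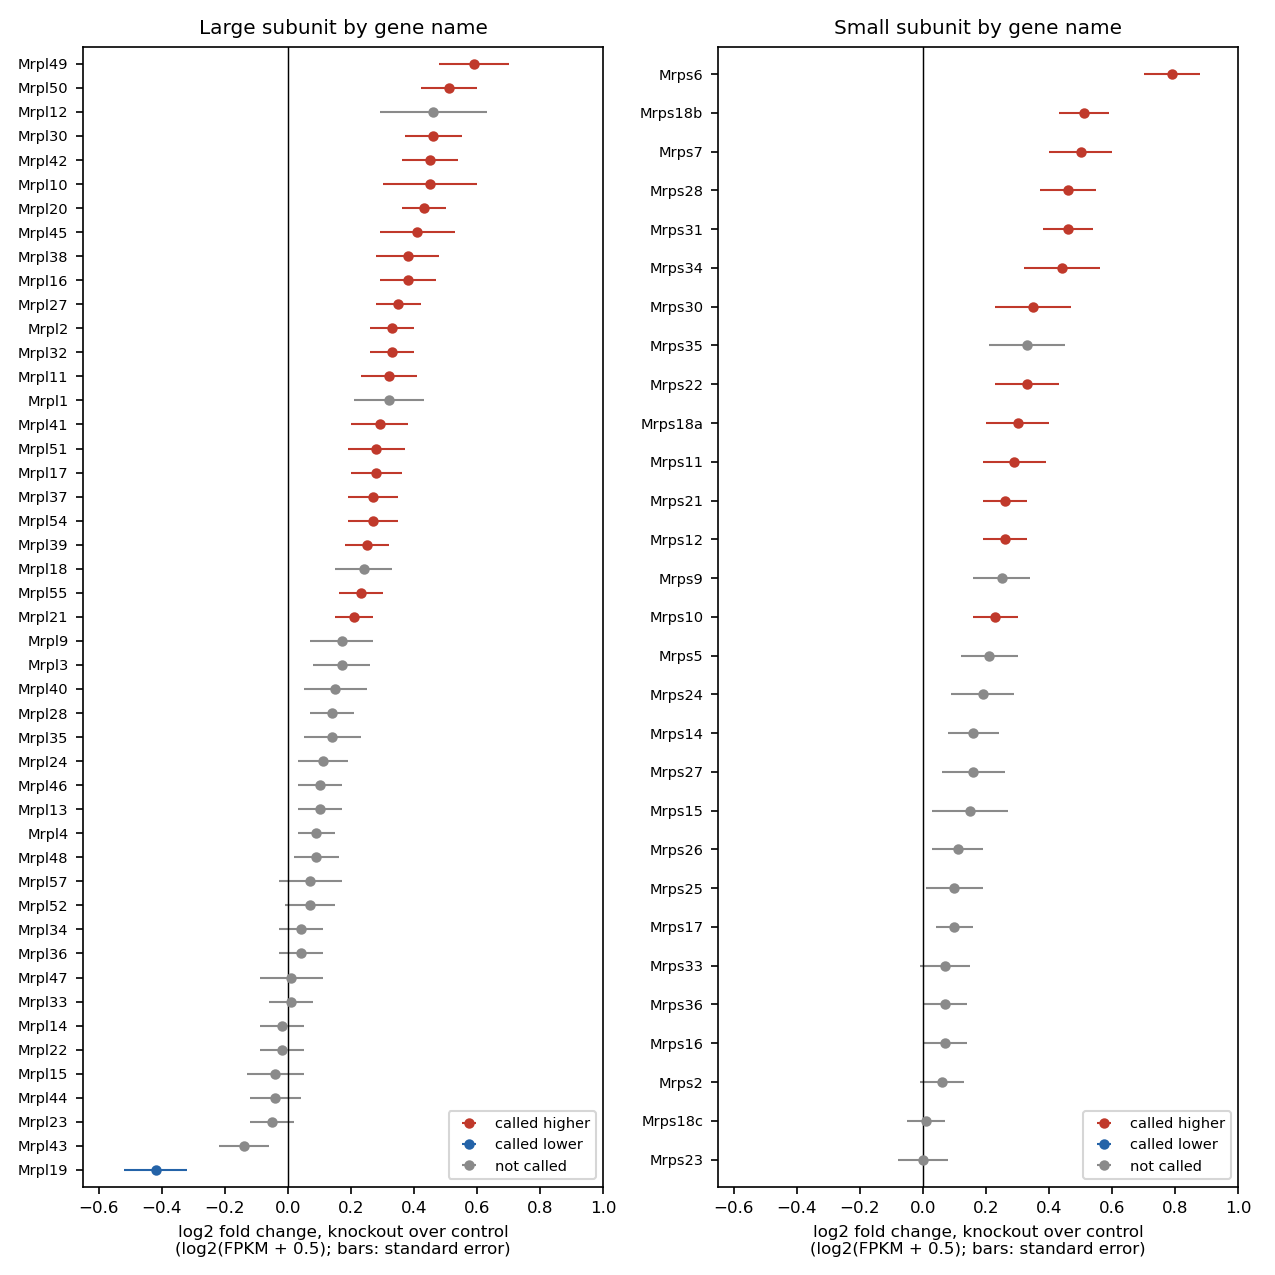
Log2 fold change of knockout over control for each tested member with its standard error, by subunit and sorted by size; red marks genes called higher, blue lower and grey those not called. Values run from −0.42 (Mrpl19) to 0.59 (Mrpl49) in the large subunit and from 0.00 (Mrps23) to 0.79 (Mrps6) in the small subunit.

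**Figure D3:**
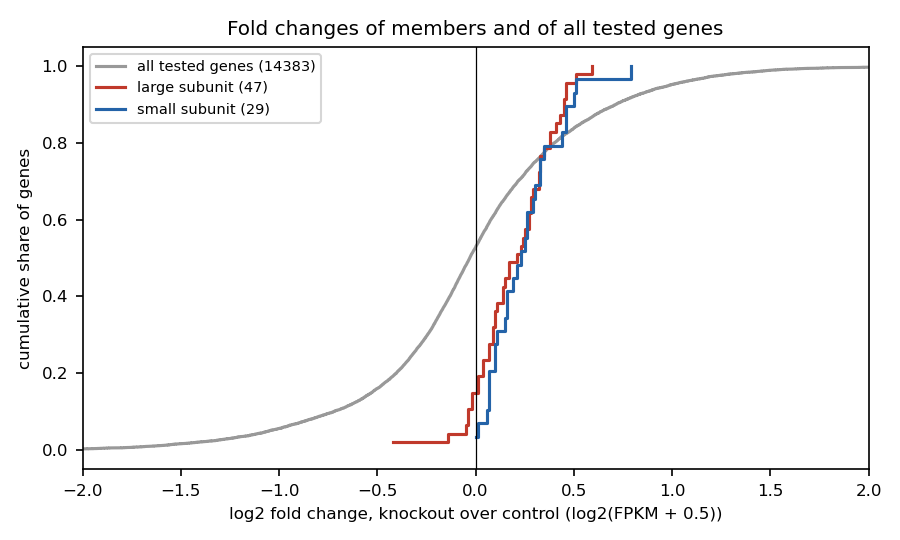
Cumulative share of genes by log2 fold change for all 14383 tested genes (grey), 47 large-subunit (red) and 29 small-subunit genes (blue); changes beyond 2 in either direction are not drawn. Both subunit curves cross the middle at 0.21 and 0.23, to the right of all tested genes at −0.03.

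Among large-subunit genes the 5 with the smallest p were Mrpl20, Mrpl50, Mrpl49, Mrpl27 and Mrpl30. Mrpl20 (ENSMUSG00000029066, mm10 chromosome 4, 155802878 to 155809975, plus strand) is the homologue of bacterial L20, which binds the ribosomal RNA early in assembly. Controls had 60.3, 58.2 and 57.3 FPKM and knockouts 75.3, 79.8 and 82.3 FPKM. The groups were well apart, and the log2 fold change was 0.43 ± 0.07 (SE, limma adjusted p = 0.0061). Mrpl20 also had the highest mean level of all members, at 68.9 FPKM over the 6 samples. Mrpl49 (ENSMUSG00000007338, chromosome 19, 6053630 to 6057751, minus strand), a protein of the mitochondrial lineage, was at 15, 13.0 and 13.9 FPKM in the controls and at 19.0, 20.7 and 24.4 FPKM in the knockouts. Its log2 difference of 0.59 ± 0.11 (SE, limma adjusted p = 0.00788) was the largest in the subunit, with the highest value in knockout replicate 3. Mrpl50 (chromosome 4, 49512596 to 49521093, minus strand), also without a bacterial homologue, went from 12.9, 13.5 and 12.1 FPKM to 16.7, 18.4 and 20.3 FPKM, with no overlap and a log2 difference of 0.51 ± 0.09 (SE, limma adjusted p = 0.00703).

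Mrpl27, whose bacterial homologue lies at the peptidyl transferase centre, was at 30.7, 30.2 and 32.8 FPKM in the controls and at 40.4, 40.0 and 39.1 FPKM in the knockouts. The knockouts lay close together, with a mean of 39.8 ± 0.675 FPKM (SD, n = 3), and the log2 fold change was 0.35 ± 0.07 (SE, limma adjusted p = 0.00831). Mrpl30 went from 49.7, 45.7 and 45.7 FPKM to 60.0, 63.6 and 71.0 FPKM, and Mrpl42, a mitochondrial-lineage protein of the large subunit, from 54.9, 53.9 and 47.1 FPKM to 71.9, 67.5 and 73.4 FPKM. Both rose without overlap between the groups, by 0.46 ± 0.09 and 0.45 ± 0.09 on the log2 scale (SE, limma adjusted p = 0.0086 and 0.00878). Mrpl52, the second most abundant member, did not pass the test. It was at 68.7, 64.9 and 66.4 FPKM in the controls and 75.4, 67.0 and 68.0 FPKM in the knockouts, and the groups overlapped (limma adjusted p = 0.484).

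The other 15 large-subunit genes that rose had log2 fold changes between 0.21 (Mrpl21) and 0.45 (Mrpl10). They included Mrpl2 (0.33) and Mrpl16 (0.38), whose bacterial homologues lie near the peptidyl transferase centre. Apart from Mrpl12, sites are named in this paragraph only for called genes. Genes that were not called were not sorted by site, and whether any site rose as a whole was not tested. Mrpl32 (0.33), a protein that the m-AAA protease must trim before it enters the ribosome, rose as well. Mrpl45 (0.41), which holds the ribosome to the inner membrane at the tunnel exit, and Mrpl10 and Mrpl11 (0.32), of the stalk base where translation factors bind, were also called. Each of these calls was lost without at least 1 library. Without control replicate 3 the limma adjusted p was 0.052 for Mrpl32, 0.0614 for Mrpl2, 0.0567 for Mrpl16, 0.0855 for Mrpl11, 0.116 for Mrpl45, 0.121 for Mrpl21 and 0.146 for Mrpl10. Mrpl10, Mrpl11, Mrpl16, Mrpl21 and Mrpl45 also missed the threshold without control replicate 2, all of these but Mrpl16 without control replicate 1, and Mrpl10, Mrpl21 and Mrpl45 without knockout replicate 2. Mrpl21 also had 0.0507 without knockout replicate 3, where the log2 fold change of Mrpl10 was 0.30. Mrpl12, the stalk protein itself, was at 11.8, 12.6 and 10.7 FPKM in the controls and at 13.3, 15 and 21.4 FPKM in the knockouts. All 3 knockout values were above the controls, but they spread widely and the limma adjusted p was 0.0705.

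Mrpl19 was the one member that fell. It encodes the homologue of bacterial L19, a protein at the interface of the subunits (ENSMUSG00000030045, chromosome 6, 81957851 to 81965958, minus strand). Its values were 3.79, 4.25 and 4.33 FPKM in the controls and 3.24, 2.87 and 2.73 FPKM in the knockouts. The groups did not overlap, and the log2 fold change was −0.42 ± 0.10 (SE, limma adjusted p = 0.0165), with an adjusted p of 0.0646 and 0.0692 without control replicate 2 or 3. Of its exon bases in GENCODE M21, 36.0% are shared with Gcfc2 on the opposite strand, which had a log2 fold change of −0.48 (limma adjusted p = 0.0327); reads of overlapping genes cannot be told apart here. Mrpl43 was the other gene with all knockout values below the controls, at 27.8, 27.2 and 29.5 against 25.9, 23.7 and 27.1 FPKM, and did not pass the test (−0.14 ± 0.08 SE, limma adjusted p = 0.177).

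In the small subunit Mrps6 had the largest change of all members. Mrps6 (ENSMUSG00000039680, chromosome 16, 92058270 to 92112227, plus strand), the homologue of bacterial S6, was at 43.6, 37.8 and 36.0 FPKM in the controls and at 63.9, 70.8 and 69.1 FPKM in the knockouts. The groups were far apart, and the log2 fold change was 0.79 ± 0.09 (SE, limma adjusted p = 0.0037), a 1.73-fold difference. The inositol transporter gene Slc5a3 lies within Mrps6 on the same strand and shares 10.4% of the exon bases of Mrps6. Slc5a3 was at 7.80, 5.26 and 5.88 FPKM in the controls and 8.64, 11.3 and 9.08 FPKM in the knockouts, a log2 fold change of 0.59 (limma adjusted p = 0.0268). The part of shared reads in the value of Mrps6 was not tested.

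Mrps18b, Mrps31, Mrps7 and Mrps28 followed by p. Mrps7, whose bacterial homologue starts assembly of the head of the subunit, was at 21.6, 20.1 and 21.4 FPKM in the controls and at 27.4, 28.9 and 34.2 FPKM in the knockouts, which is 0.50 ± 0.10 on the log2 scale (SE, limma adjusted p = 0.00853). Mrps28, the counterpart of bacterial S1, went from 23.2, 22.8 and 19.2 FPKM to 30.9, 28.2 and 30.6 FPKM (0.46 ± 0.09 SE, limma adjusted p = 0.0102). In both genes the lowest knockout value was above the highest control value. Mrps31, a mitochondrial-lineage protein, rose by 0.46 ± 0.08 on the log2 scale, from 7.92, 7.90 and 7.64 FPKM to 9.90, 11.2 and 11.8 FPKM (SE, limma adjusted p = 0.00765). Mrps21, the most abundant small-subunit mRNA, rose by 0.26 ± 0.07 from 63.5, 60.3 and 61.0 FPKM to 77.3, 70.0 and 75.1 FPKM. Its limma adjusted p of 0.0263 was between 0.0551 and 0.0953 without any of the 3 controls in turn and 0.07 without knockout replicate 1. Mrps15 did not pass the test, with 36.9, 39.2 and 33.3 against 36.7, 37.6 and 48.0 FPKM and overlapping groups (limma adjusted p = 0.345).

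The 3 genes related to bacterial S18 differed in their values. Mrps18b (ENSMUSG00000024436, chromosome 17, 35910379 to 35916389, minus strand) was at 7.59, 7.29 and 7.11 FPKM in the controls and at 9.74, 11.2 and 11.0 FPKM in the knockouts, which is 0.51 ± 0.08 on the log2 scale (SE, limma adjusted p = 0.00547). Mrps18a, whose protein sits in the large subunit, was at 12.5, 11.9 and 12.3 against 13.4, 15 and 17.4 FPKM, which is 0.30 ± 0.10 on the log2 scale (SE, limma adjusted p = 0.0495). It passed the test by little, and in 5 of the 6 fits without 1 library it did not. Mrps18c, the one that takes the place of bacterial S18, was at 24.3, 25.2 and 24.4 against 24.8, 24.5 and 25.1 FPKM, with overlapping groups and a log2 difference of 0.01 ± 0.06 (SE, limma adjusted p = 0.89). The difference between these genes was not tested. Mrps30, the other large-subunit protein with a small-subunit name, rose from 7.65, 7.29 and 7.15 FPKM to 8.08, 9.62 and 11.1 FPKM (0.35 ± 0.12 SE, limma adjusted p = 0.048), and its adjusted p lay between 0.0752 and 0.135 in 5 of the 6 fits without 1 library. Mrps36 was at 24.8, 24.5 and 22.5 against 24.2, 26.0 and 24.9 FPKM and did not pass the test (limma adjusted p = 0.478).

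**Figure D4:**
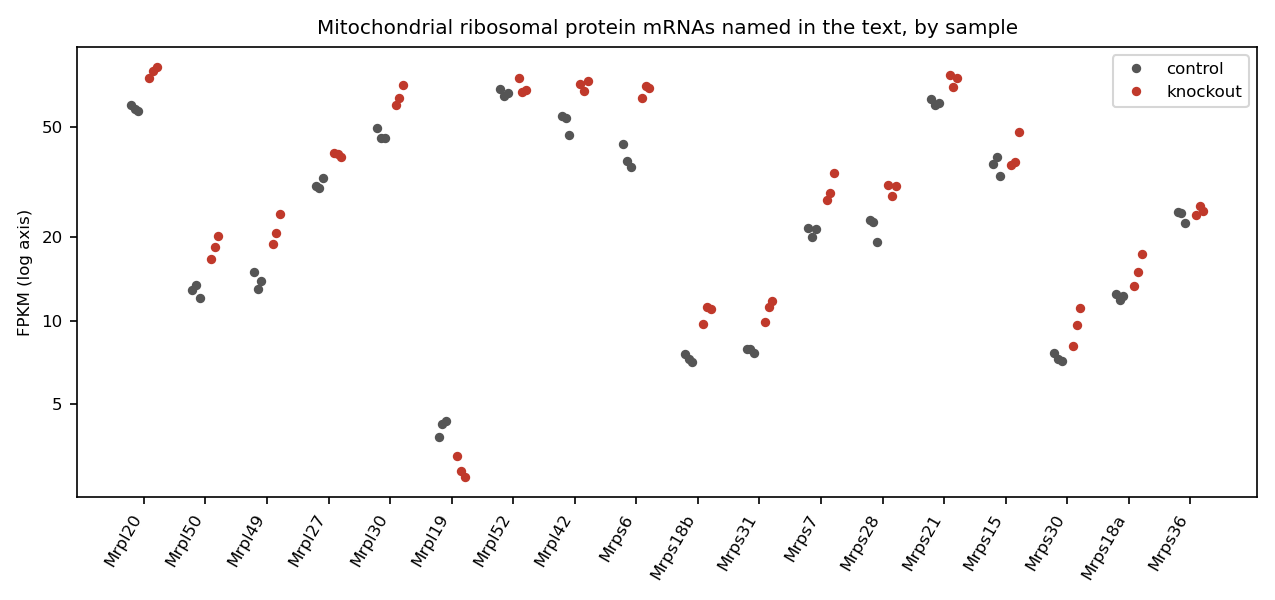
FPKM on a log axis in each control (grey) and knockout (red) sample for 18 members chosen by p, level, size of change or subunit assignment. Mrps6 shows the widest gap (36.0 to 43.6 against 63.9 to 70.8 FPKM), Mrpl19 is lower in all knockouts, and the groups of Mrpl52, Mrps15 and Mrps36 overlap.

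Altogether 11 members were called higher in every one of the 6 fits that left out 1 library. They were Mrpl20, Mrpl27, Mrpl30, Mrpl42, Mrpl49, Mrpl50, Mrps6, Mrps7, Mrps18b, Mrps28 and Mrps31. These are all the members called higher without control replicate 3, 14.5% of members against 13.5% of all tested genes in that fit. The share of all tested genes called in every one of the 6 fits was not counted. Only Mrpl49 and Mrps6 rose by more than 1.5-fold. Member levels spanned a 29.2-fold range, from 2.36 FPKM (Mrpl47) to 68.9 FPKM (Mrpl20), and level and log2 fold change were nearly unrelated across the 76 members (Spearman rho = 0.06, a description of genes in the same 6 libraries). The 47 members with a bacterial homologue had 19 higher (40.4%, against 21.9% of all tested genes), 1 lower and a median of 0.21. The 28 tested members sorted to the mitochondrial lineage had 15 higher (53.6%) and a median of 0.27. Of these, 12 of 19 in the large subunit (median 0.27) and 3 of 9 in the small subunit (median 0.16) rose. Mrps18a was sorted to the mitochondrial lineage and Mrps18b to the bacterial homologues, though both are related to bacterial S18. Without control replicate 3 the counts were 7 of the bacterial and 4 of the mitochondrial class. In that fit 14.5% of all members and 13.5% of all tested genes were called higher. Whether these classes differ was not tested. In 28 members some exon bases overlap another gene in GENCODE M21, where Mrpl33 was not found. The 48 without such overlap had 24 higher, where 21.9% of all tested genes were called higher, and a median of 0.25. Without control replicate 2 the count was 8 of 48, in a fit where 14.5% of all tested genes were called higher. Without control replicate 3 it was 6 of 48, a share below the 13.5% of all tested genes in that fit. Mrpl53, of which 88.0% of exon bases lie within Ccdc142 on the same strand, was listed at 0 in all 6 samples and was the one member not tested.

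The ribosomal proteins that carry other names gave 2 rises among 6 genes (33.3%, against 21.9% of all tested genes). Dap3, the GTP-binding protein of the small subunit, was at 9.43, 9.37 and 8.83 FPKM in the controls and at 11.3, 12.8 and 13.9 FPKM in the knockouts (log2 fold change 0.44 ± 0.09 SE, limma adjusted p = 0.0104). Ptcd3, which lies where mRNA enters the small subunit, went from 11.7, 9.68 and 9.82 FPKM to 12.8, 14.6 and 16.4 FPKM (0.47 ± 0.12 SE, limma adjusted p = 0.0195), with an adjusted p of 0.0747 and 0.0739 without control replicate 2 or 3. In both genes all knockouts were above all controls. Chchd1 (−0.11), Aurkaip1 (0.07) and Gadd45gip1 (0.26) did not pass the test.

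The promoters show which letters members share at their starts. RefSeq windows from 250 bases before to 50 after a start site (GRCm38.p6) were found by symbol for 68 members, 65 of them with 1 window. Both strands were searched for letters of factors known to act on nuclear genes of mitochondria, GCGCATGCG for NRF1, CCGGAAG for ETS factors such as GABPA, and AAGATGGCG for YY1. The NRF1 letters overlap their own reverse complement, so one site can match on both strands. They were in a window of 7 of 68 members (10.3%), against 1.94% of 26994 genes with a window. The ETS letters were in 25 (36.8% against 9.92%) and the YY1 letters in 8 (11.8% against 1.63%). The genes compared were not limited to those tested in this fat, nor matched to the members in base composition. Of the members called higher, 15 of 30 with a window held any of the 3, and of those not called 19 of 37. A match is a description and not a bound site. The windows of Mrps6 (chr16:92058086-92058385, plus strand) and Mrpl20 (chr4:155802628-155802927, plus strand), the members of smallest p in each subunit, hold none of the 3. Those of Mrpl32 (chr13:14612988-14613287, minus strand), Mrps18b (chr17:35916391-35916690, minus strand) and Mrpl42 (chr10:95501900-95502199, minus strand), all called higher, were picked after the search to show each motif. Matches are in capitals: NRF1 in Mrpl32 and in the first stretch of Mrps18b, ETS at the end of Mrps18b, and YY1 in Mrpl42.
Mrps6: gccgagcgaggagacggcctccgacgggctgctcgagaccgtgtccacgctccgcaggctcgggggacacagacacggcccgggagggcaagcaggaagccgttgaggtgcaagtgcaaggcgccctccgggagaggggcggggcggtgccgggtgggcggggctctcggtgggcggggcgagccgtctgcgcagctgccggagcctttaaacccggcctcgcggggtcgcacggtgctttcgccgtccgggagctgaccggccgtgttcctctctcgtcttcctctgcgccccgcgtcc
Mrpl20: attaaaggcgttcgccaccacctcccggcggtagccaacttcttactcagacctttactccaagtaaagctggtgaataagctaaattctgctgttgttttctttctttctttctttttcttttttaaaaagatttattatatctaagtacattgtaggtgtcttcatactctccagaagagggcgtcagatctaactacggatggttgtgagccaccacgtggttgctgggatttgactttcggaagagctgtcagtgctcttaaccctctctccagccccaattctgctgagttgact
Mrpl32: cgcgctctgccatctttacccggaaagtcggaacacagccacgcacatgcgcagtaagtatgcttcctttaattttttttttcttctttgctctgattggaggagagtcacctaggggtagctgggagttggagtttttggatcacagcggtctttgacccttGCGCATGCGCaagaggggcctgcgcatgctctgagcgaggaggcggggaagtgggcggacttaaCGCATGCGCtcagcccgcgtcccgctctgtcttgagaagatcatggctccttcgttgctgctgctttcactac
Mrps18b: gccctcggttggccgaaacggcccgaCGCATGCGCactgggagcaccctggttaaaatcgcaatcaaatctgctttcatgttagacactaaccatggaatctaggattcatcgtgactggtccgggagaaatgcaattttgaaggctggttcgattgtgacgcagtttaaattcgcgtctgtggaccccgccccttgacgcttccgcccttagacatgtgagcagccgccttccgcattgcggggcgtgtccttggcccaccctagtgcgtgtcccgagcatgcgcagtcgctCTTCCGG
Mrpl42: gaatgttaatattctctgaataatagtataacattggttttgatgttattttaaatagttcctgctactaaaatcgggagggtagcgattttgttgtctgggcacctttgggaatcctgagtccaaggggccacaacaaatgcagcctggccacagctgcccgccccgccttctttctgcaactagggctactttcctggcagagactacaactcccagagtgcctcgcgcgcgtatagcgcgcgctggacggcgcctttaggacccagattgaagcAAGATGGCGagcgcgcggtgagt

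Among other genes that build or serve the mitochondrial ribosome, calls in both directions were found only for assembly factors. Of 14 tested translation factors 2 rose and the other 12 did not pass the test, with a median log2 fold change of 0.12. The share that rose, 14.3%, was below the 21.9% of all tested genes. The count was 1 without control replicate 2 or 3 and 4 without knockout replicate 1. All tested genes were called higher at 14.5%, 13.5% and 19.6% in those fits. Tsfm, the exchange factor for the elongation factor Tu, went from 12.5, 11.8 and 11.6 FPKM to 17.6, 15.5 and 18.1 FPKM (0.49 ± 0.08 SE, limma adjusted p = 0.00599). Mrrf, which recycles ribosomes after termination, rose by 0.56 ± 0.13 (SE, limma adjusted p = 0.0157, or 0.0621 and 0.0607 without control replicate 2 or 3). Of 34 assembly factors 8 rose and 3 fell, with a median of 0.13; the share that rose was 23.5%, near the 21.9% of all tested genes, and the share that fell was 8.82% against 21.6%. The count of rises was 4 of 34 without control replicate 2 or 3 and 5 of 34 without control replicate 1. In those fits 14.5%, 13.5% and 17.7% of all tested genes were called higher. In every fit without 1 library 2 assembly factors fell, where 9.07% to 21.8% of all tested genes were called lower. Mtg1, a GTPase of large-subunit assembly, went from 6.52, 7.06 and 7.03 FPKM to 9.99, 10.9 and 12.1 FPKM (0.64 ± 0.09 SE, limma adjusted p = 0.00444). Phb, a prohibitin of the inner membrane, rose by 0.43 ± 0.08 (SE, limma adjusted p = 0.00671). Rpusd4, a pseudouridine synthase that acts on the large ribosomal RNA, fell from 11.3, 11.5 and 11.3 FPKM to 7.78, 8.53 and 6.85 FPKM (−0.53 ± 0.09 SE, limma adjusted p = 0.00627). Rbfa, a factor for small-subunit RNA, fell by 0.34 on the log2 scale (SE 0.06, limma adjusted p = 0.00782). Both falls had groups that did not overlap.

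Among 15 genes of mitochondrial transcription and RNA handling 6 rose, 40.0% against 21.9% of all tested genes, with a median of 0.18. Without control replicate 3 the count was 2 of 15, in a fit where 13.5% of all tested genes were called higher. Without control replicate 1 or 2 it was 3 of 15, where 17.7% and 14.5% of all tested genes were. Mterfd3, of the mitochondrial transcription termination factor family, rose by 0.84 ± 0.14 and Hsd17b10, a subunit of the mitochondrial RNase P, by 0.63 ± 0.12 (SE, limma adjusted p = 0.00624 and 0.00791). Tfb2m, a transcription initiation factor, rose by 0.35 ± 0.08, and Elac2, which cleaves the ends of tRNAs, by 0.29 ± 0.07 (SE, limma adjusted p = 0.0156 and 0.0199). Without control replicate 1 or 3 the adjusted p was 0.0539 and 0.0633 for Tfb2m and 0.0537 and 0.0676 for Elac2, which had 0.0713 without control replicate 2. The mitochondrial ribosomal RNAs were not analysed here.

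**Figure D5:**
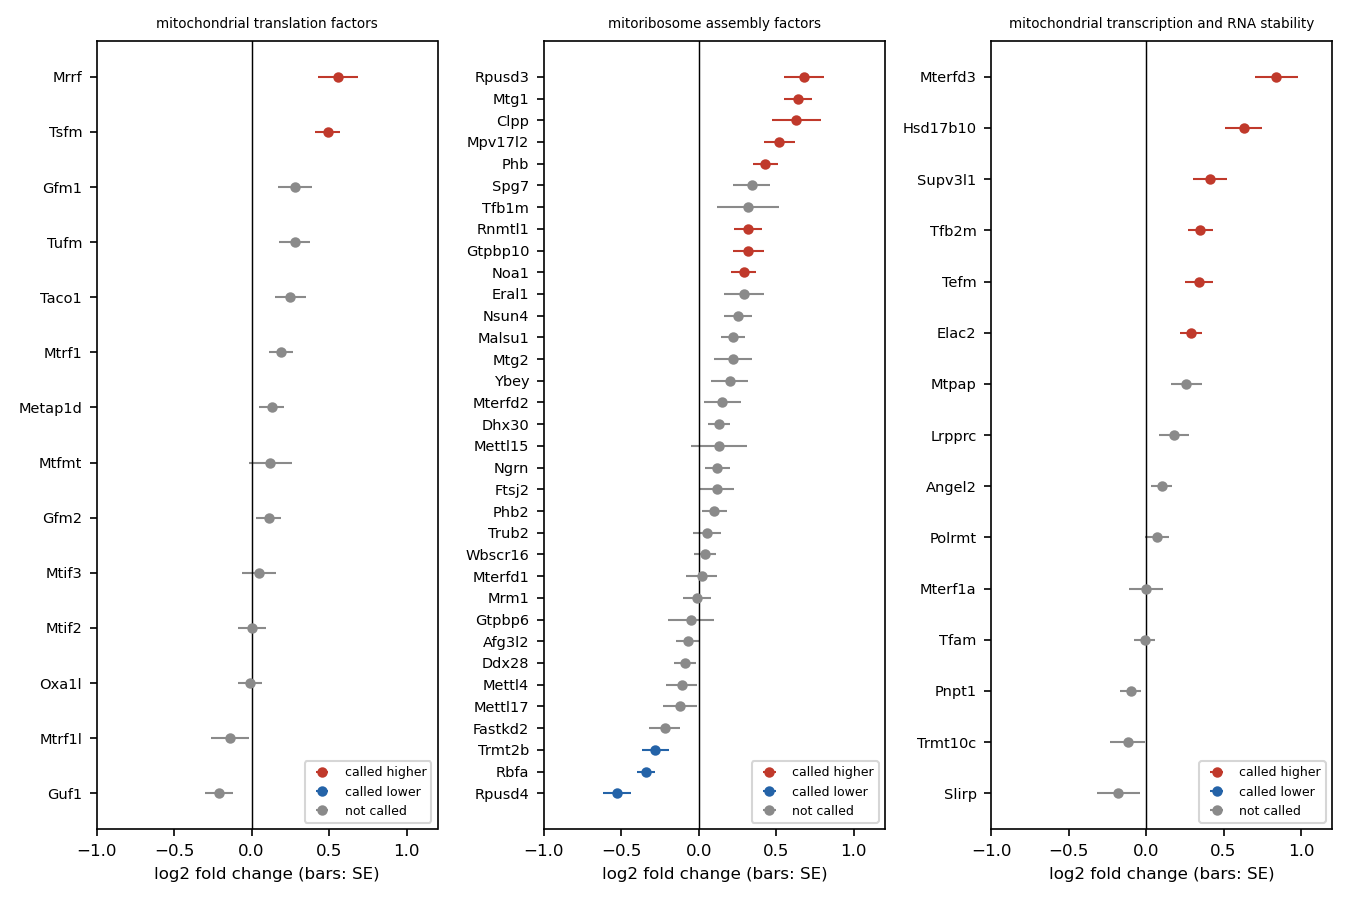
Log2 fold change with its standard error for tested genes of 3 lists (translation factors, ribosome assembly factors, transcription and RNA stability); red marks genes called higher, blue lower and grey not called. Calls go both ways in the assembly list, with Mtg1 at 0.64 and Rpusd4 at −0.53.

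Marker mRNAs of several cell types also differed between the groups, some higher and some lower in the knockouts. Of 21 mature adipocyte markers 20 rose (95.2%, against 21.9% of all tested genes), with a median log2 fold change of 1.74. Their sums were 10200 to 14400 FPKM in the controls and 27300 to 41300 FPKM in the knockouts. Of 21 macrophage markers 17 fell (81.0%, against 21.6% of all tested genes), with a median of −1.22. Their sums were 7930 to 9350 against 1860 to 4360 FPKM. Leaving out control replicate 2 gave 7 falls, and leaving out control replicate 3 gave 10, with medians of −1.21 and −1.20. In those fits 9.07% and 10.7% of all tested genes were called lower. All 10 endothelial markers rose (143 to 163 against 295 to 443 FPKM), as did 8 of 10 mesothelial markers (74.4 to 78.5 against 122 to 141 FPKM). Among the others, 2 of 10 T cell (20%), 1 of 7 tested B cell (14.3%) and 2 of 10 adipocyte progenitor markers (20%) fell, shares below the 21.6% of all tested genes called lower. Without any of the 3 controls in turn, limma called 1 T cell marker lower, and the B cell and progenitor calls were lost. In those fits 9.07% to 14.8% of all tested genes were called lower. Without knockout replicate 1 limma called 6, 3 and 3 of these lists lower, in a fit where 21.8% of all tested genes were. No marker of the adipocyte or macrophage list was at 0, and the 10 epididymis and testis markers were all under the filter and summed to at most 2.92 FPKM. By sample, the mean log2 level of the adipocyte markers was 7.41, 6.87 and 6.93 in the controls and 8.58, 8.67 and 9.37 in the knockouts. The ribosomal protein mRNAs were set against their control means, as a median log2 difference. It was 0.03, 0.0 and −0.03 in the controls and 0.14, 0.18 and 0.26 in the knockouts. Both measures were highest in knockout replicate 3, which was the highest knockout for 47 of 76 members. Whether the 2 measures follow each other was not tested. Genes of the mitochondrial genome took 1.88%, 1.76% and 1.73% of reads in the controls and 2.44%, 2.61% and 4.09% in the knockouts. The part of cell makeup in the ribosomal protein values was not tested. In whole tissue, more cells of a type and more RNA per cell cannot be told apart.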

How the data were processed

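Libraries were made with the NEBNext Ultra kit from Trizol-extracted RNA, per the labels' protocols. CASAVA, FastQC, STAR 2.5 and HTSeq 0.6.1 with build mm10 are named in the submitters' processing notes; the sources used here give neither strand setting nor annotation release. The deposited values are FPKM per gene by the authors, per the file headers. The products of FPKM and kilobases added up to 1000000 per sample, and all values were whole reads within 0.01 of a read, which gave the depths; 3 reads on a 2 kb gene correspond to 0.0489 to 0.0594 FPKM, for counting error only. No replicate pair agreed within counting noise.

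Genes with at least 0.5 FPKM in 3 samples (14383) were tested with limma 3.58.1 (R 4.3.3) on log2(FPKM + 0.5), which understates changes of low genes, with genotype as the one coefficient, trend and robust moderation, two-sided, Benjamini-Hochberg over all tested genes. The procedure was also run on simulated reads with independent noise and few changed genes. That setting lacks the differences between whole libraries seen here, so it cannot show how often calls err in these data. Members and lists were chosen with earlier results of these data known. Named genes were, per subunit, the 5 of smallest p and 2 of largest change per direction and the 3 most abundant, with genes whose name and place differ, and up to 4 called genes per pathway list; Mrpl12, Mrpl43, Mrps18c, overlapping neighbours and genes given with a fold change alone were chosen after their values were seen. Positions are those of the table, exon overlaps those of GENCODE M21 (76 of 77 members found), and promoters those of RefSeq. Alternatives were pseudocounts of 0.1 and 1, a filter at 1 FPKM, no filter, median-of-ratios scaling, limma-voom on recovered reads, the replicate number as a block, each library left out, control replicate 2 and knockout replicate 3 left out together, and sorting by place in the ribosome.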

Additional observations from a re-analysis of the deposited data

How the results depend on the processing

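The direction of the members' median was the same under all 15 alternatives. All 34 members called higher had a log2 fold change above 0 in all 15 fits. In each of them every knockout value was above every control value, so leaving out libraries could not change the sign. Their shared sign is therefore no separate support. Another 8 members, Mrps23 and Mrpl47 among them, were not called and changed sign between fits. With no filter, 18 members were higher, 10 of the large and 8 of the small subunit (23.7%, against 11.2% of all genes). With the replicate number as a block, 13 were higher (8 large, 5 small) and 0 lower, which is 17.1% of members against 15.8% of all genes. The labels do not say that the numbers pair the samples. Same-numbered libraries had correlations of −0.237, 0.03 and −0.179 in their deviations from the group means. Libraries of unlike number had −0.083 to 0.235. With so few libraries, centred on their own group means, these values cannot show whether samples were paired. Without control replicate 2 and knockout replicate 3 together, 17 were higher (10 large, 7 small) and 0 lower (22.4% against 17.9% higher). Over the 6 fits that left out 1 library, 11 to 30 members were higher (14.5% to 39.5%) and 0 to 1 lower. Of all tested genes 13.5% to 20.9% were called higher in these fits and 9.07% to 21.8% lower. The large subunit had 6 to 18 higher and 0 to 1 lower, and the small subunit 5 to 12 higher. Medians were 0.16 to 0.24 (large) and 0.21 to 0.25 (small). The lowest large-subunit median, 0.16, came without knockout replicate 3. Fewer samples were fitted there, and the cause of the losses was not tested. Median-of-ratios scaling gave 25 higher (32.9%, against 21.6% of all tested genes) and limma-voom 29 (38.2% against 22.0%). Small differences limit these results: the median standard error of a member's log2 fold change was 0.08, against a median change of 0.22.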
